A study of Mus musculus with 9 samples.

Results

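NRF2 antioxidant and glutathione genes were described here through 10 genes picked by name: Nfe2l2, Keap1, Nqo1, Hmox1, Gclc, Gclm, Gsr, Txnrd1, Srxn1 and Sod3. Each matched 1 of the 55471 genes in the tables, and all 10 were among the 15362 genes with enough reads to be tested. They were measured by RNA sequencing of 9 cultures of mouse articular chondrocytes, the cells of joint cartilage, taken from the knee ends of femur and tibia of wild-type pups at postnatal day 5. Control, Ad-OSCAR and Ad-OSCAR + 5-ASA had 3 cultures each. Per the labels, cells grown for 3 days were exposed to an adenovirus at 400 MOI (infectious units per cell) over 2 h, and 5-ASA was added 36 h later. The methods give another MOI and shorter times. They also state that the Control cells received the Ad-Control virus, that all plates carried COLpep, the collagen-II peptide bound by OSCAR, that IL-1β was absent, and that the mice were ICR or C57BL/6J. Ad-OSCAR is an adenovirus carrying Oscar, the osteoclast-associated receptor, which binds collagen, and 5-ASA is 5-aminosalicylic acid, an anti-inflammatory drug of the bowel. Nothing in the labels says whether the cultures of a group came from separate animals, so p-values measure only the spread between these cultures. No group received 5-ASA without Ad-OSCAR.

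NRF2, the product of Nfe2l2, is the transcription factor that switches on genes against oxidants and electrophiles. In resting cells KEAP1 holds it in the cytoplasm and hands it to a CUL3 ubiquitin ligase for destruction, so its activity is set largely at the level of protein. When KEAP1 is modified by an oxidant, NRF2 enters the nucleus, pairs with a small MAF protein and binds the antioxidant response element in front of genes for glutathione synthesis (Gclc, Gclm), glutathione and thioredoxin reduction (Gsr, Txnrd1), repair of peroxiredoxins (Srxn1), quinone reduction (Nqo1) and heme breakdown (Hmox1). Sod3, the secreted superoxide dismutase, sits in the cartilage matrix. RNA levels say nothing direct about the amount or place of the NRF2 protein.

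The core of the antioxidant response element, TGACNNNGC on either strand, was searched in the 250 bases before RefSeq start sites (GRCm38.p6). The sequences were available for 6 of the 10 genes in 8 windows, and the genes without one were Hmox1, Gclc, Gsr and Sod3. A match was present before Nfe2l2, Gclm and 1 of the starts of Txnrd1, and the same core was found in 10.2% of all 32851 promoter windows over these 250 bases. The AP-1 motif TGANTCA, the site of FOS and JUN dimers, whose letters can overlap those of the core, was found in 6.75% of all windows and occurred at 2 places before Srxn1. Neither motif was matched before Keap1 or Nqo1. Elements outside these 250 bases, or with letters other than those of the core, were not searched. The windows that held a match are shown 5′ to 3′ along the gene, with the matched letters in capitals: the antioxidant response core in the first 3 and the AP-1 motif in the last.
Nfe2l2, chr2:75704664-75704913, minus strand: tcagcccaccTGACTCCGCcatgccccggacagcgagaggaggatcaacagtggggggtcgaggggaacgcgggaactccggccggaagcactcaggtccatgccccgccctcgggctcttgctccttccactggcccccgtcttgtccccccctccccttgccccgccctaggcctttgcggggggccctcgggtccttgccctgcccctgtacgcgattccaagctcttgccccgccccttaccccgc
Gclm, chr3:122245307-122245556, plus strand: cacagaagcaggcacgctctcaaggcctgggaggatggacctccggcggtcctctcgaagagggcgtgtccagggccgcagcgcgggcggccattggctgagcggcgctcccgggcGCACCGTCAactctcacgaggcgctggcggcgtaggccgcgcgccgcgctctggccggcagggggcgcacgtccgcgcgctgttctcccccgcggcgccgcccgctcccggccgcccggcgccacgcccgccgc
Txnrd1, chr10:82858956-82859205, plus strand: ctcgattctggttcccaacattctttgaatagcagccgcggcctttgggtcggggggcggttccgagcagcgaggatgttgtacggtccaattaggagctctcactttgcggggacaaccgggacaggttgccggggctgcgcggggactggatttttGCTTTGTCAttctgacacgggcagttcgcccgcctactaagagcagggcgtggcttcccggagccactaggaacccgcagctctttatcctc
Srxn1, chr2:152105274-152105523, plus strand: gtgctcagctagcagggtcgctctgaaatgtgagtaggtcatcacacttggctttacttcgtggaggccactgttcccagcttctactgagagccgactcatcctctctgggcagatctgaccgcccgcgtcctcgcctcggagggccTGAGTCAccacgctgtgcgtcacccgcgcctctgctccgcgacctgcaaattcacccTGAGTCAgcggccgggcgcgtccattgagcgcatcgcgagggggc
Counted from the start site, the core began 240 bases before it in Nfe2l2, 134 in Gclm and 92 in Txnrd1, where the last pair read on the opposite strand. The AP-1 motifs of Srxn1 began 102 and 45 bases before the start. These matches are letters in a window, with no measurement of binding.

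The 9 libraries held 19733448 to 28192740 estimated reads. The overexpressed gene was read first as a check of the labels. Oscar was at 0.174 ± 0.0458 CPM (counts-per-million, normalised by TMM; SD, n = 3 in every group) in Control and at 6665 ± 397 CPM in Ad-OSCAR. With 5-ASA it was at 3399 ± 404 CPM, 1.96-fold below Ad-OSCAR without the drug (log2 fold change -0.97 ± 0.065 SE, edgeR adjusted p = 1.76e-08). Viral and native Oscar reads were counted together. All 12 chondrocyte markers were present in Control, and all 12 were called lower in Ad-OSCAR, their summed level running from 38823 to 44572 CPM in Control, from 2374 to 2704 in Ad-OSCAR and from 2834 to 3286 with 5-ASA. Markers of other cell types are given with the pathway lists. In bulk RNA, fewer cells of a type and less RNA per cell cannot be told apart, and the part of these changes in the values that follow was not tested.

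OSCAR overexpression was accompanied by a rise of 6 of the 10 genes and a small fall of 2. Gclc, Sod3 and Nfe2l2 rose most, between 2.19-fold and 2.43-fold, followed by Txnrd1 at 1.69-fold. Srxn1 rose by 19.9% and Hmox1 by 12.3%, Keap1 fell by 11.6% and Gsr by 12.0%, and Nqo1 and Gclm did not pass the test. The test was edgeR's quasi-likelihood test in 1 fit of all 9 cultures, and a gene was called where its p, adjusted by Benjamini-Hochberg over all 15362 genes, was below 0.05. Of 19 other settings, the falls of Keap1 and Gsr were called in 12 each, the rise of Hmox1 in 15 and that of Srxn1 in 16. Over all genes tested, 32.7% were called higher in this comparison and 32.2% lower, so a call alone was common. The median log2 fold change of the 10 genes was 0.21, against 0.02 over all genes, and their median absolute change was 0.22, against 0.38 over all genes. None of the 10 met the study's own limits of an absolute log2 fold change above 1.5 with an adjusted p below 0.05, which 4.57% of all genes met as higher and 5.39% as lower.

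Adding 5-ASA to Ad-OSCAR cells was accompanied by a fall of 6 of the 10 genes: Gclc, Hmox1, Nqo1, Srxn1, Gclm and Nfe2l2. Sod3 rose, and Txnrd1, Keap1 and Gsr were not called. In this comparison 10.4% of all genes were called higher and 7.38% lower. The 10 genes had a median log2 fold change of -0.24, against -0.00 over all genes, and a median absolute change of 0.31, against 0.12 over all genes. The study's limits for the drug were a fold above 1.5 with an unadjusted p below 0.05. Its methods word them for treated cells against Ad-Control, whereas here they were applied against untreated Ad-OSCAR cells. Under them 1 of the 10 genes, Gclc, was lower and none was higher, where 1.87% of all genes were lower and 2.27% higher. Oscar itself was 1.96-fold lower with 5-ASA, more than any of the 10 genes, and its part in these differences was not tested.

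The Ad-OSCAR + 5-ASA cultures were also set against Control. Here 4 of the 10 genes were called higher (Nfe2l2, Gclc, Txnrd1 and Sod3) and 5 lower (Keap1, Nqo1, Hmox1, Gclm and Gsr), beside 31.4% and 31.8% of all genes. Nfe2l2 (1.93-fold), Txnrd1 (1.61-fold) and Sod3 (2.86-fold) passed the study's limits for the drug here, and Gclc (1.47-fold) did not. The greatest fall, that of Nqo1 (1.45-fold), did not pass either. The share of all genes passing these limits against Control was not computed. The 3 comparisons share cultures, so their values are given side by side for each gene and not correlated.

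**Figure D1:**
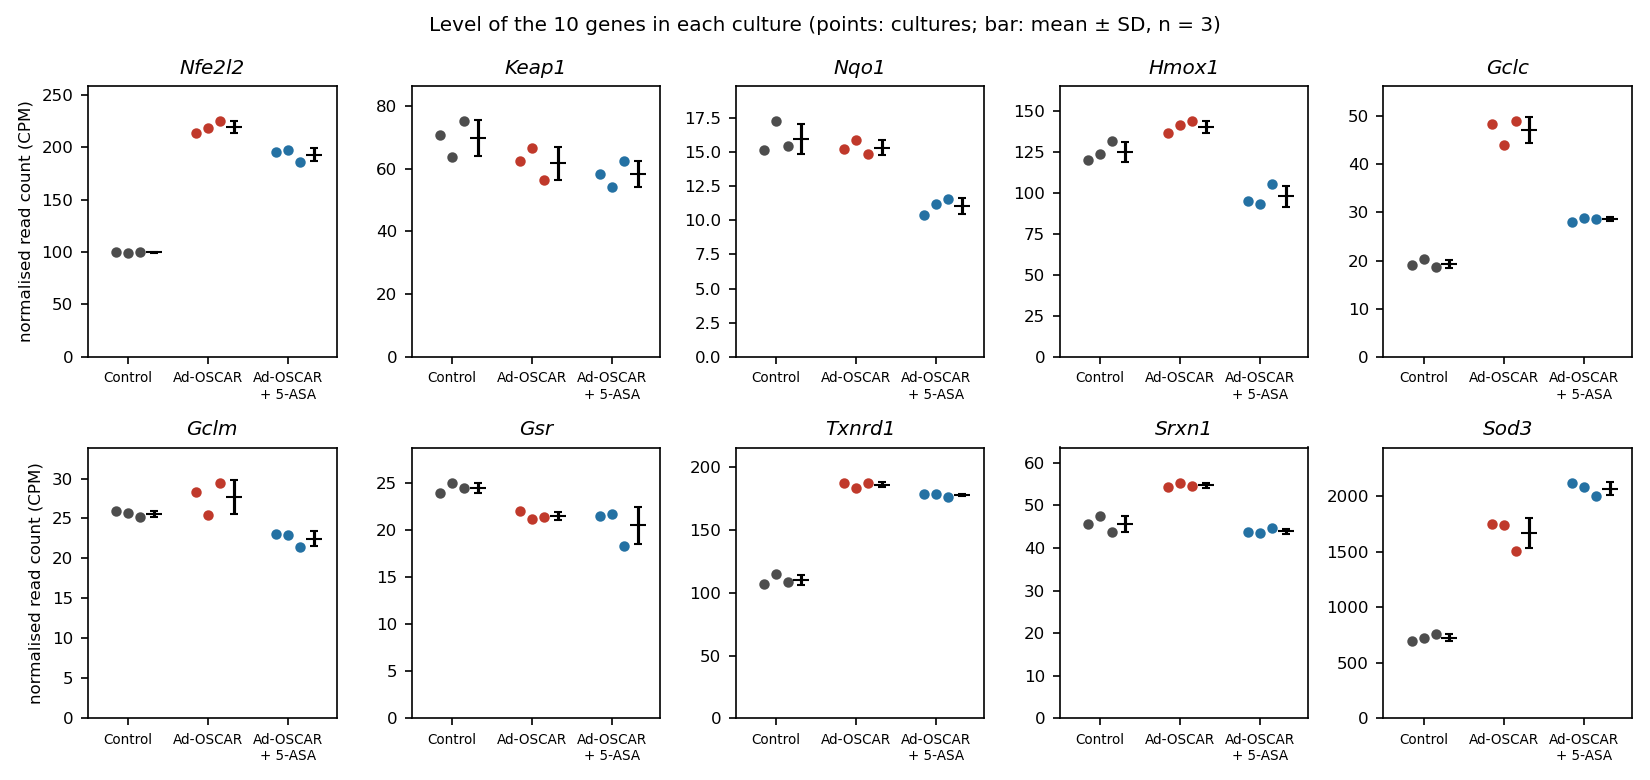
Level of each of the 10 genes in every culture, in CPM (TMM-normalised) on axes that start at 0. Points are cultures (grey Control, red Ad-OSCAR, blue Ad-OSCAR + 5-ASA), and the bar beside them is the mean with the SD over 3 cultures. Gclc went from 19.3 to 47.1 and 28.6 CPM on average, whereas Sod3 went from 725 to 1667 and 2069.

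Nfe2l2 (ENSMUSG00000015839.6, chr2:75675513-75704641, minus strand, GRCm38) varied little within groups. Its 3 Control cultures were at 100.1, 99.2 and 100.3 CPM, the Ad-OSCAR cultures at 214, 219 and 225, and those with 5-ASA at 195, 198 and 186. The 3 groups did not overlap, with Ad-OSCAR the highest. Nfe2l2 was thus 2.19-fold higher in Ad-OSCAR than in Control (log2 fold change 1.13 ± 0.045 SE, adjusted p = 1.20e-13). Adding 5-ASA lowered it by 11.9% (-0.18 ± 0.043, adjusted p = 0.00623), and it stayed 1.93-fold above Control (adjusted p = 1.72e-12). All 3 calls held in each of the 19 other settings tried.

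Keap1 (ENSMUSG00000003308.15, chr9:21229730-21239361, minus strand), the repressor of NRF2, varied more. It was at 70.7, 63.7 and 75.1 CPM in Control, at 62.3, 66.4 and 56.2 in Ad-OSCAR and at 58.1, 54.1 and 62.6 with 5-ASA. Control and Ad-OSCAR overlapped, and the difference between them was small (log2 fold change -0.18 ± 0.069, adjusted p = 0.0321). That call was lost when any 1 of 4 cultures was left out: Control 1 (adjusted p = 0.0851), Control 3 (0.151), Ad-OSCAR 1 (0.0659) or Ad-OSCAR 3 (0.190). It was also lost with limma on TPM, where the log2 fold change was -0.10 (adjusted p = 0.389 to 0.485). Keap1 with 5-ASA was not called against Ad-OSCAR (-0.08 ± 0.069, adjusted p = 0.480) and was 16.4% below Control (adjusted p = 0.00358), with no overlap between those groups. An exon of Keap1 overlaps the antisense gene Gm16754, and whether reads were counted by strand is not given in the sources used here, so reads of the pair may not be fully separated.

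The balance of activator and repressor RNA was read as a ratio of TPM (transcripts-per-million), which corrects for transcript length. The Nfe2l2 to Keap1 ratio of TPM was 1.84 ± 0.128 in Control, 4.4 ± 0.412 in Ad-OSCAR and 4.30 ± 0.511 with 5-ASA. Its lowest value in Ad-OSCAR was 4.04 and its highest in Control 1.98, so these groups stood apart. The ranges of Ad-OSCAR and of Ad-OSCAR + 5-ASA overlapped, the latter running from 3.77 to 4.79.

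Gclc (ENSMUSG00000032350.9, chr9:77754535-77794485, plus strand) encodes the catalytic subunit of glutamate-cysteine ligase, which carries out the rate-limiting step of glutathione synthesis. Its level was 19.1, 20.3 and 18.7 CPM in Control, 48.3, 44.1 and 48.9 in Ad-OSCAR and 28.1, 28.9 and 28.7 with 5-ASA. Every Ad-OSCAR culture was above every culture with 5-ASA, and these in turn were above every Control culture. Gclc rose 2.43-fold with Ad-OSCAR (log2 fold change 1.28 ± 0.058, adjusted p = 8.10e-13). With 5-ASA it fell by 39.4% (-0.72 ± 0.054, adjusted p = 5.96e-08), the greatest fall of the 10 genes, and was still 1.47-fold above Control (adjusted p = 2.21e-07).

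Gclm (ENSMUSG00000028124.15, chr3:122245557-122270732, plus strand), the modifier subunit that makes the same ligase more efficient, moved far less. It was at 26.0, 25.7 and 25.2 CPM in Control, at 28.3, 25.4 and 29.5 in Ad-OSCAR and at 23.0, 23.0 and 21.4 with 5-ASA. The second Ad-OSCAR culture lay within the Control range and the other 2 above it. The difference was not called (log2 fold change 0.12 ± 0.063, adjusted p = 0.119), but was called without Ad-OSCAR 2 (0.17, adjusted p = 0.0218). With 5-ASA, Gclm was 19.1% lower than in Ad-OSCAR (-0.30 ± 0.062, adjusted p = 0.00208) and 12.3% lower than in Control (adjusted p = 0.0161). The last call was lost without Ad-OSCAR + 5-ASA 3 (adjusted p = 0.0644). On the TPM scale limma called neither difference (adjusted p = 0.0529 to 0.0766 against Ad-OSCAR and 0.0613 to 0.0975 against Control). Exons of Gclm overlap Gm17494 on the opposite strand and the pseudogene Gm6061 on the same strand, which leaves its counts less certain.

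The proportion of the subunits of the ligase differed between groups. The Gclc to Gclm ratio of TPM was 0.278 ± 0.0287 in Control, 0.633 ± 0.0251 in Ad-OSCAR and 0.469 ± 0.0362 with 5-ASA. Its ranges, 0.246 to 0.301, 0.611 to 0.660 and 0.430 to 0.502, did not overlap, and Gclm had the higher TPM in every culture.

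**Figure D2:**
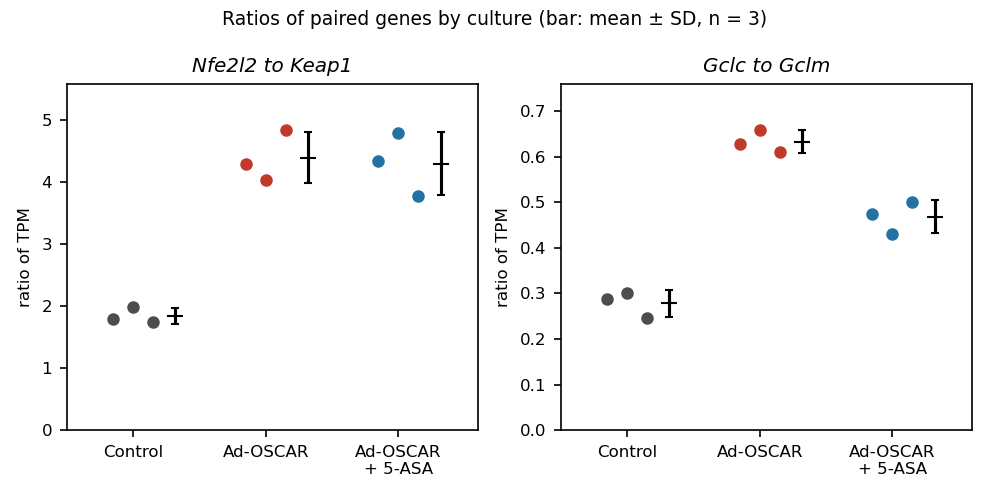
Ratio of TPM of Nfe2l2 to Keap1 (left) and of Gclc to Gclm (right) in each culture, with the mean and SD over 3 cultures beside the points. The Gclc to Gclm ratio was lowest in Control (0.278), highest in Ad-OSCAR (0.633) and between them with 5-ASA (0.469), whereas the Nfe2l2 to Keap1 ratio was alike in the last 2 groups (4.4 and 4.30).

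Gsr (ENSMUSG00000031584.16, chr8:33652523-33698163, plus strand), glutathione reductase, returns oxidised glutathione to its reduced form. Its cultures were at 24.0, 25.1 and 24.5 CPM in Control, at 22.1, 21.2 and 21.5 in Ad-OSCAR and at 21.6, 21.7 and 18.3 with 5-ASA. All Ad-OSCAR cultures lay under all Control cultures, by 12.0% on average (log2 fold change -0.18 ± 0.068, adjusted p = 0.0241). The call was lost with DESeq2 (adjusted p = 0.050) and without Control 2 (0.0696), Ad-OSCAR 2 (0.0640) or Ad-OSCAR 3 (0.0563), and with limma on TPM (0.348 to 0.457). Adding 5-ASA gave no call against Ad-OSCAR (-0.07 ± 0.068, adjusted p = 0.536), and the sign of that difference turned without Ad-OSCAR + 5-ASA 3, the lowest culture. Against Control, Gsr with 5-ASA was 16.2% lower (adjusted p = 0.00347), a call that limma on TPM did not give (adjusted p = 0.0698 to 0.113).

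Txnrd1 (ENSMUSG00000020250.10, chr10:82833951-82897712, plus strand), the cytosolic thioredoxin reductase, also rose in Ad-OSCAR. It was at 107, 115 and 109 CPM in Control, at 187, 184 and 187 in Ad-OSCAR and at 179, 178 and 176 with 5-ASA. The Control cultures were lowest by a wide margin. The gene was 1.69-fold higher in Ad-OSCAR than in Control (log2 fold change 0.76 ± 0.044, adjusted p = 3.03e-11) and 1.61-fold higher with 5-ASA than in Control (adjusted p = 1.32e-10). Between Ad-OSCAR and Ad-OSCAR + 5-ASA the cultures did not overlap, but the difference of 4.44% was not called (-0.07 ± 0.043, adjusted p = 0.331). With limma on log2(TPM + 1) and no filter it was called (-0.19, adjusted p = 0.0475), and with the other TPM settings it was not.

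Srxn1 (ENSMUSG00000032802.8, chr2:152105516-152111376, plus strand) encodes sulfiredoxin, which reactivates overoxidised peroxiredoxins. Control cultures were at 45.6, 47.4 and 43.7 CPM, Ad-OSCAR cultures at 54.4, 55.3 and 54.4, and those with 5-ASA at 43.7, 43.5 and 44.6. Ad-OSCAR stood above both other groups, which overlapped. The rise was 19.9% (log2 fold change 0.26 ± 0.047, adjusted p = 8.64e-05) and the fall with 5-ASA 19.7% (-0.32 ± 0.046, adjusted p = 9.16e-05). With 5-ASA, Srxn1 was not called against Control (-0.05 ± 0.048, adjusted p = 0.333). On the TPM scale neither the rise (adjusted p = 0.162 to 0.237) nor the fall (0.0569 to 0.0836) was called by limma.

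Hmox1 (ENSMUSG00000005413.8, chr8:75093621-75100589, plus strand), heme oxygenase 1, breaks heme down to biliverdin, iron and carbon monoxide. It was at 119.8, 123 and 132 CPM in Control, at 136, 141 and 143 in Ad-OSCAR and at 95.1, 93.4 and 105 with 5-ASA. The cultures with 5-ASA were lowest and those of Ad-OSCAR highest, with no overlap between any groups. The rise with Ad-OSCAR was 12.3% (log2 fold change 0.17 ± 0.053, adjusted p = 0.0105) and was no longer called without Control 1 (0.14, adjusted p = 0.0678) or on the TPM scale (adjusted p = 0.0568 to 0.0732). With 5-ASA, Hmox1 fell by 30.2% from its Ad-OSCAR level (-0.52 ± 0.053, adjusted p = 2.18e-06), to 21.6% below Control (adjusted p = 1.69e-05).

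Nqo1 (ENSMUSG00000003849.8, chr8:107388225-107403206, minus strand), the quinone reductase often read as a gauge of NRF2 activity, did not follow Nfe2l2 in Ad-OSCAR. Its level was 15.1, 17.3 and 15.5 CPM in Control, 15.2, 15.9 and 14.8 in Ad-OSCAR and 10.4, 11.2 and 11.6 with 5-ASA. Control and Ad-OSCAR overlapped (log2 fold change -0.06 ± 0.076, adjusted p = 0.478), while all 3 cultures with 5-ASA lay under all others. With 5-ASA, Nqo1 was 27.8% below Ad-OSCAR (-0.47 ± 0.077, adjusted p = 2.90e-04) and 30.9% below Control (adjusted p = 1.12e-05). Both of these calls held in all 19 other settings.

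Sod3 (ENSMUSG00000072941.5, chr5:52363791-52371418, plus strand) was the most abundant of the 10 genes and the only one called higher with 5-ASA than in Ad-OSCAR. Control cultures were at 695, 721 and 757 CPM, Ad-OSCAR cultures at 1749.8, 1741 and 1509, and those with 5-ASA at 2121, 2086 and 2001. The groups did not overlap and stood in this order. Sod3 rose 2.30-fold with Ad-OSCAR (log2 fold change 1.20 ± 0.054, adjusted p = 6.95e-13) and a further 1.24-fold with 5-ASA (0.31 ± 0.053, adjusted p = 3.78e-04), to 2.86-fold above Control (adjusted p = 3.41e-14). The step with 5-ASA kept its direction on the TPM scale but was not called there (adjusted p = 0.0725 to 0.0815).

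**Figure D3:**
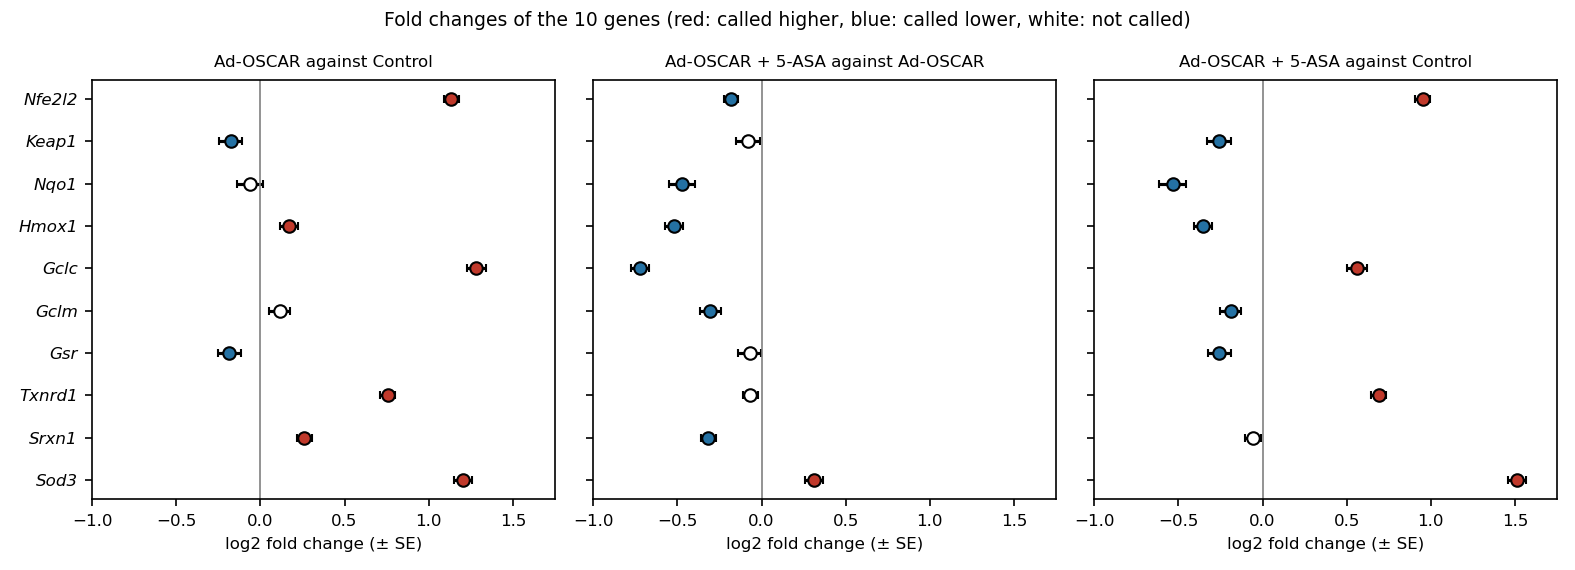
Log2 fold change of each gene, with its SE from the edgeR fit, in the 3 comparisons (horizontal axis; the genes are on the vertical axis). Red marks genes called higher, blue those called lower and white those not called at an adjusted p of 0.05. Most genes lie right of 0 or close to it in Ad-OSCAR against Control and left of it in Ad-OSCAR + 5-ASA against Ad-OSCAR, with Sod3 on the right in both.

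Levels of different genes were compared as TPM. In Control, Sod3 had the highest mean TPM (336), then Hmox1 (150.5), Nfe2l2 (72.3) and Txnrd1 (63.5), and no neighbours in this order overlapped down to Keap1 (39.5). Keap1, Gclm (35.6) and Srxn1 (32.2) overlapped in sequence, as did Gsr (21) and Nqo1 (19.3), and Gclc was lowest at 9.85 TPM. In Ad-OSCAR, Hmox1 (172) and Nfe2l2 (162) overlapped, and Gclc (24.5) stood above Gsr (19.1) and Nqo1 (18.9). With 5-ASA, Nfe2l2 (133) was above Hmox1 (113) without overlap, and Gclc (13.9) and Nqo1 (12.8) overlapped at the bottom of the order. Sod3 headed all 3 orders, at 788 TPM in Ad-OSCAR and 916 with 5-ASA.

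The mean transcript length that accompanies each gene's estimate moves when the shares of its isoforms move. It varied between cultures for 7 of the 10 genes and was fixed for Nqo1, Gclc and Sod3. In 21 exact permutation tests, 2-sided with 3 cultures a group, 2 reached 0.10, the smallest p this design allows, and both concerned Keap1. Its mean length was 3100 ± 45.0 bases in Control, 2994 ± 50.3 in Ad-OSCAR and 3124 ± 47.3 with 5-ASA (adjusted p = 0.70 for both differences by the exact permutation test). A design of this size cannot reach 0.05, so these lengths are a description.

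Around the 10 genes, 8 lists with 122 further genes of the pathway were read from the same fit, and 104 of them were tested. Ad-OSCAR was accompanied by a rise of 49 and a fall of 31 of these, with a median log2 fold change of 0.11. These are 47.1% and 29.8% of the genes tested, beside 32.7% and 32.2% of all genes. Adding 5-ASA gave 22 higher and 13 lower, 21.2% and 12.5% beside 10.4% and 7.38% of all genes, with a median of 0.01. The 22 rises dropped to 6, 5 and 5 with limma in the 3 settings on TPM. The lists are described in turn by their counts and medians. The count of each list is to be read against these shares of all genes, and its median against 0.02 over all genes for Ad-OSCAR and -0.00 for 5-ASA.

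Among 16 partners and regulators of NRF2, 10 rose and 2 fell with Ad-OSCAR (median 0.18). Maff, a small MAF protein that pairs with NRF2, went from 17.0 ± 0.686 to 35.4 ± 2.50 CPM (2.08-fold, adjusted p = 2.63e-10) and further to 42.3 ± 3.18 with 5-ASA (1.19-fold, adjusted p = 0.00781). Brca1, a DNA repair protein reported to bind NRF2, fell from 11.1 ± 0.732 to 1.00 ± 0.0929 CPM (log2 fold change -3.46, adjusted p = 2.08e-13). With 5-ASA 2 genes rose, 1 fell and 13 were not called, the fall being that of Rbx1, a subunit of the CUL3 ligase (62.3 ± 2.82 to 53.7 ± 2.54 CPM, adjusted p = 0.00717). The rises with 5-ASA numbered 1 without Ad-OSCAR 3 or Ad-OSCAR + 5-ASA 1, and 0 with limma on TPM. Cul3 itself was not called in either comparison (113.9, 107.6 and 106.5 CPM on average in the 3 groups).

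The list of glutathione synthesis and NADPH supply, which also holds genes of glutathione breakdown, moved mainly the other way from Gclc. Of 17 genes tested, 3 rose and 10 fell with Ad-OSCAR (median -0.22), and 9 rose and 2 fell with 5-ASA (median 0.20), the rises numbering 4 or 5 with limma on TPM. The genes that fell with Ad-OSCAR were Tkt, Taldo1, Idh1, G6pdx, Me1, Slc1a4, Ggct, Ggt5, Ggt7 and Chac1. Those that rose were Glrx, Gss and Slc7a11. Slc7a11, the cystine importer that feeds glutathione synthesis, rose from 14.1 ± 1.39 to 23.3 ± 0.633 CPM (1.65-fold, adjusted p = 2.09e-06). It rose further to 32 ± 4.47 with 5-ASA (1.38-fold, adjusted p = 7.34e-04). Ggt5, a gamma-glutamyl transferase, fell from 4.34 ± 0.771 to 1.48 ± 0.148 CPM (log2 fold change -1.54, adjusted p = 7.54e-07). Chac1, which degrades glutathione, was at 39.8 ± 1.86 CPM in Control, 30.4 ± 3.55 in Ad-OSCAR and 59.7 ± 4.0 with 5-ASA, a 1.96-fold rise with the drug (adjusted p = 4.94e-08). Gss, glutathione synthetase, which completes the molecule that Gclc begins, moved in the same direction as Gclc in both steps. It went from 26.5 ± 0.994 CPM in Control to 29.8 ± 1.01 in Ad-OSCAR (1.12-fold, adjusted p = 0.0259). With 5-ASA it fell to 24.2 ± 1.90 CPM (log2 fold change -0.30, adjusted p = 0.00220).

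Glutathione peroxidases and transferases were split. All 5 peroxidases tested were called with Ad-OSCAR, 2 higher and 3 lower (median -0.18). Gpx3, the secreted form, rose from 50.2 ± 1.52 to 86.4 ± 5.15 CPM and to 102 ± 6.61 with 5-ASA (adjusted p = 1.15e-09 and 0.00454), the 1 call with 5-ASA in the list (2 without Control 2 or Ad-OSCAR + 5-ASA 3 and with DESeq2, 0 with limma on TPM), while Gpx7 of the endoplasmic reticulum fell from 46.5 ± 0.945 to 19.5 ± 1.13 CPM (adjusted p = 8.60e-13). Of 21 transferases, 10 rose and 6 fell with Ad-OSCAR (median 0.09), and 5 rose and 3 fell with 5-ASA (median -0.07). The rises with 5-ASA dropped to 3 without Ad-OSCAR 2, Ad-OSCAR + 5-ASA 1 or Ad-OSCAR + 5-ASA 3, to 2 without Ad-OSCAR 3 or Ad-OSCAR + 5-ASA 2 and with DESeq2, and to 0 with limma on TPM. Gstt1 went from 5.22 ± 0.791 to 17.5 ± 2.82 CPM and to 26.0 ± 1.81 with 5-ASA (1.5-fold, adjusted p = 3.98e-04). Gsta1 fell from 2.94 ± 0.0689 to 0.885 ± 0.339 CPM with Ad-OSCAR (adjusted p = 5.58e-06). Gstp2 showed the greatest rise among the transferases above 1 CPM (4.59-fold, adjusted p = 1.54e-05) and a fall with 5-ASA (adjusted p = 0.0266), but its level was low, uneven between Ad-OSCAR cultures (5.27 ± 2.81 CPM) and uncertain, since Gstp2 is a close copy of Gstp1 and the counting may have divided reads between them.

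In the thioredoxin and peroxiredoxin list, 5 of 14 genes rose and 6 fell with Ad-OSCAR (median -0.05), beside 32.7% and 32.2% of all genes. Prdx6 went from 87.6 ± 2.7 to 181 ± 6.14 CPM (2.07-fold, adjusted p = 7.57e-13), and Prdx4 from 88.7 ± 4.42 to 44.4 ± 1.76 (log2 fold change -1.0, adjusted p = 9.18e-12). With 5-ASA 5 rose and 1 fell (median 0.03), among them Txnrd3, which went from 6.20 ± 0.468 to 9.15 ± 0.713 CPM (1.48-fold, adjusted p = 5.30e-04), and Sesn3, from 135 ± 3.39 to 121 ± 4.86 (adjusted p = 0.0213). These counts were unsteady: 3 rose without Ad-OSCAR + 5-ASA 1 or Ad-OSCAR + 5-ASA 2, 1 rose and 3 fell with limma on TPM, 2 fell with DESeq2, and 0 fell without Ad-OSCAR 1, Ad-OSCAR 3 or Ad-OSCAR + 5-ASA 1.

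The other superoxide dismutases did not share one course with Sod3. Sod2, the mitochondrial enzyme, rose from 244 ± 3.36 to 609 ± 22.3 CPM with Ad-OSCAR (2.50-fold, adjusted p = 6.54e-15) and was at 613 ± 12.4 with 5-ASA (adjusted p = 0.896 against Ad-OSCAR). Sod1, the cytosolic enzyme, was not called in either step and was at 82.8 ± 3.31, 81.5 ± 5.14 and 79.1 ± 3.81 CPM in the 3 groups. Cat, catalase, fell from 89.6 ± 2.78 to 65.8 ± 1.89 CPM with Ad-OSCAR (adjusted p = 9.97e-08). None of the 4 genes in the list was called with 5-ASA by edgeR, DESeq2 or limma, and none had an unadjusted p under 0.05.

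Of the remaining NRF2 targets, 15 of 23 were higher and 3 lower with Ad-OSCAR (median 0.47). Aldh3a1, an aldehyde dehydrogenase, rose from 0.582 ± 0.146 to 3.47 ± 0.536 CPM (5.85-fold, adjusted p = 1.64e-08), and Ugdh, which supplies UDP-glucuronate to the cartilage matrix as well as to detoxification, fell from 286 ± 1.79 to 215 ± 8.59 CPM (adjusted p = 5.00e-07). With 5-ASA 6 of the 23 were lower, 17 were not called and none was higher (median -0.09). DESeq2 and limma also gave 0 higher, and edgeR gave 1, the aldehyde oxidase Aox1, when p was not adjusted (adjusted p = 0.0569). The 6 were Esd, Abcc5, Ptgr1, Ephx1, Ftl1 and Cbr1. Their falls were small, that of Ptgr1, a prostaglandin and leukotriene reductase, being the greatest at 37.1 ± 1.10 to 30.9 ± 0.508 CPM (log2 fold change -0.26, adjusted p = 0.00117). No alternative moved the counts of this list by over 1.5 times. Of the ferritin subunits, named after their values were seen, Ftl1 fell from 2181 ± 90.3 to 1846 ± 130.6 CPM with 5-ASA (adjusted p = 0.00163), while Fth1 was at 7122 ± 217 and 7137 ± 178 (adjusted p = 0.977).

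NADPH oxidases make superoxide. Of 11 genes for their subunits 4 passed the filter, and with Ad-OSCAR 3 of them rose. Most of the list's reads were of Cyba, the membrane subunit that several oxidases share, at 42.6 ± 3.53, 53.2 ± 2.42 and 57.6 ± 6.03 CPM in the 3 groups. Cybb, the phagocyte oxidase subunit, had the largest fitted change but was near 0 in Control (0.0609 ± 0.0728 CPM), and was at 1.45 ± 0.192 in Ad-OSCAR and 1.52 ± 0.167 with 5-ASA. Nox4 rose from 2.64 ± 0.652 to 5.67 ± 0.609 CPM with Ad-OSCAR (2.16-fold, adjusted p = 8.75e-06). It was at 5.58 ± 0.572 CPM with 5-ASA. With 5-ASA none of the 4 was called by edgeR, DESeq2 or limma, and none had an unadjusted p under 0.05 in edgeR. Without Ad-OSCAR + 5-ASA 2, 1 gene of the list was called higher with 5-ASA, and without Ad-OSCAR 1, 1 was called lower in Ad-OSCAR. Macrophage and osteoclast markers, some of which are made by cells that also carry Cybb, went both ways with Ad-OSCAR: 7 of 12 were tested, 4 higher and 2 lower, with sums of 35.8 to 38 CPM in Control, 52.6 to 53.9 in Ad-OSCAR and 46.6 to 47.2 with 5-ASA. Tyrobp and Dcstamp were at 0 in all Control and all Ad-OSCAR cultures, and Adgre1 in all Control cultures. The part of such cells in these values was not tested.

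**Figure D4:**
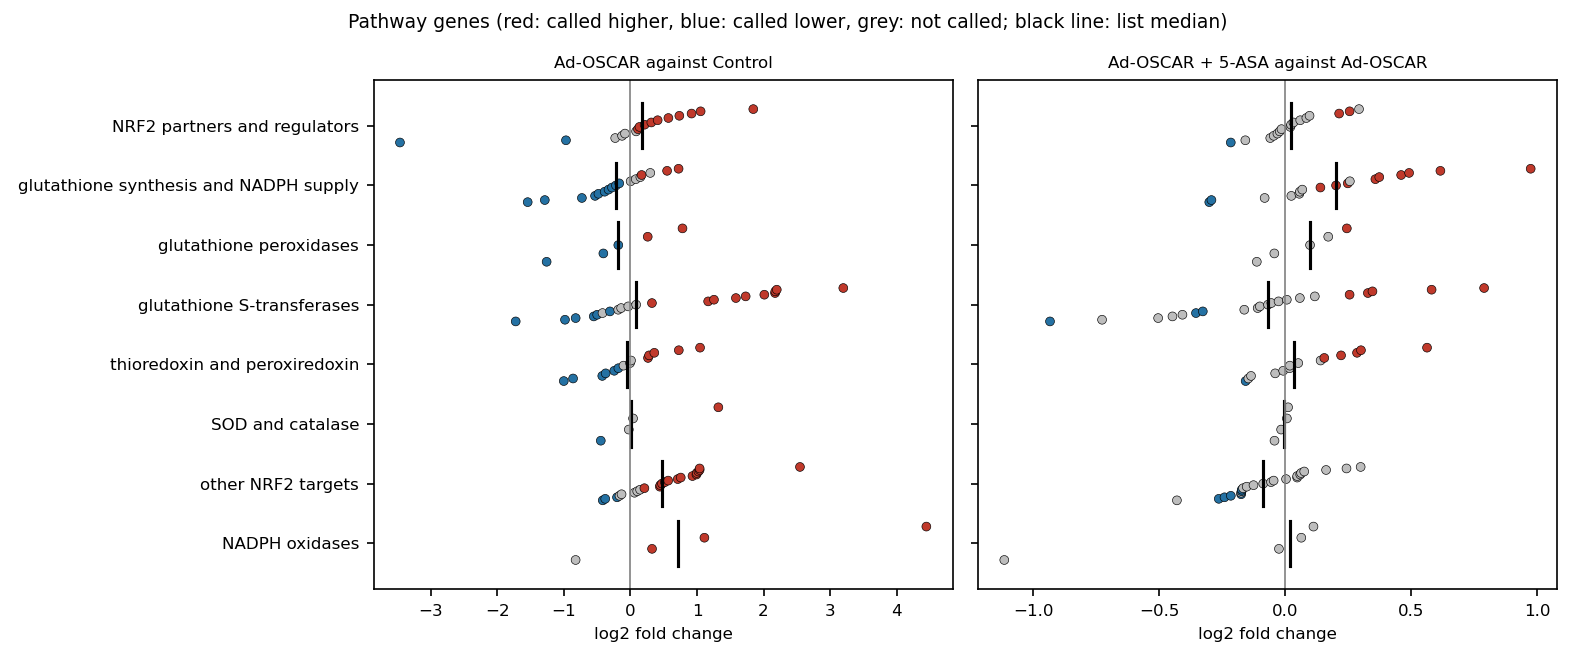
Log2 fold change of each tested gene of the 8 pathway lists (horizontal axes, which differ in range between the panels) in Ad-OSCAR against Control (left) and Ad-OSCAR + 5-ASA against Ad-OSCAR (right). Each point is a gene, red where called higher, blue where called lower and grey where not called, and the black line is the list's median. The median of the other NRF2 targets was 0.47 on the left and -0.09 on the right, and that of glutathione synthesis and NADPH supply -0.22 and 0.20.

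Markers of further cell types also differed between groups. Of 8 synovial fibroblast markers 7 were tested, and with Ad-OSCAR 2 were higher and 5 lower. Their sum ran from 560 to 585 CPM in Control, from 1126 to 1145 in Ad-OSCAR and from 1023 to 1078 with 5-ASA, and most of it was Prg4, lubricin, which cartilage cells of the joint surface also make (247, 897 and 793 CPM on average). Endothelial markers summed to at most 11.6 CPM in any culture, with Cldn5 at 0 throughout. Of these 8 markers 3 were tested. With Ad-OSCAR, Vwf (0.266 ± 0.161 to 2.44 ± 0.337 CPM) and Tek (0.598 ± 0.167 to 2.22 ± 0.353) were called higher and Erg lower. With 5-ASA, Vwf (0.904 ± 0.0764 CPM) and Tek (1.38 ± 0.151) were called lower than in Ad-OSCAR, and Erg was not called. Red cell markers summed to at most 0.123 CPM.

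The genes whose pattern over the 9 cultures was most like that of each gene were ranked by Pearson's r of log2 CPM. These r describe points that fall into 3 groups, and many genes separate the groups in the same way. Nearest to Nfe2l2 were Akirin1 (r = 0.999), Plin2 and H3f3b, nearest to Gclc were Tatdn2 (0.998), Cks2 and Fnip2, and nearest to Sod3 were Adra2a (0.997), Unc5b and Igfbp7. Klhdc4 (0.973), Anxa8 and Pgd (0.960) were nearest to Nqo1. Pgd, which makes NADPH in the pentose phosphate pathway, was at 198 ± 4.35, 199 ± 2.61 and 162 ± 3.63 CPM in the 3 groups. For Hmox1 they were Tnfrsf23 (0.979), Gtse1 and Alas1 (0.946), the last encoding the enzyme that opens heme synthesis.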

How the data were processed

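RNA of 9 cultures was sequenced after a stranded mRNA library preparation. Per the study's methods the authors trimmed the reads, aligned them to GRCm38 with STAR 2.7.1a and counted them per gene with RSEM 1.3.1. The deposited tables hold the authors' expected counts, TPM, FPKM and mean transcript length per gene, and the deposited FPKM values were not used. An expected count that RSEM divides between isoforms or near copies is an estimate. Gene symbols came from the GENCODE reference (55144 of 55471 identifiers matched). The 10 genes, the 8 pathway lists and the markers were chosen with earlier results of these data known.

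Expected counts were rounded and tested with edgeR 4.0.16 (R 4.3.3; TMM, filterByExpr, a quasi-likelihood fit that held the 9 cultures and no term but group, 6 residual degrees of freedom), with Benjamini-Hochberg adjustment over 15362 genes. The study used DESeq2, which is an alternative here (DESeq2 1.42.0; limma 3.58.1 on log2(TPM + 1) is another). Library totals ran from 19733448 to 28192740, which for a gene at 10 CPM is over 100 reads a culture. From each pathway list, the text names the gene with the greatest rise and the greatest fall among called genes with a mean of at least 1 CPM, in Ad-OSCAR against Control and in Ad-OSCAR + 5-ASA against Ad-OSCAR, and other genes were named after their values were seen. Replicates within a group differed by more than counting noise (chi-square per degree of freedom 4.03 to 7.52), so none was merged. The tests were tried on simulated data with known changes in 200 genes, far fewer than the 5031 called higher and 4952 called lower in Ad-OSCAR. That trial therefore does not show how the tests behave when so many genes differ. Columns of the authors' own comparisons were not present in the tables used.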

Additional observations from a re-analysis of the deposited data

How the results depend on the processing

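Each result was recomputed in 19 other settings, 9 of which left out 1 culture. The number of the 10 genes called higher in Ad-OSCAR, and the numbers called lower with 5-ASA and higher with 5-ASA than in Control, stayed within 1.5 times of those reported. The number called lower in Ad-OSCAR was 1 with DESeq2 and 0 with limma on TPM (each of 3 settings), against 2. With limma on TPM, 0 genes were called higher with 5-ASA than in Ad-OSCAR, against 1, and 3 lower with 5-ASA than in Control, against 5. Leaving out 1 culture gave 5 to 7 genes higher and 0 to 2 lower in Ad-OSCAR, 1 higher and 6 lower with 5-ASA against Ad-OSCAR, and 4 higher and 4 to 5 lower with 5-ASA against Control. The difference of Gsr between Ad-OSCAR + 5-ASA and Ad-OSCAR ran from -0.1128 to 0.0047 (log2) when 1 culture was left out, turning without Ad-OSCAR + 5-ASA replicate 3. For the pathway genes, whose alternatives were added after seeing the data, the rises with 5-ASA dropped from 22 to 6, 5 and 5 with limma on log2(TPM + 1), on log2(TPM + 0.1) and without a filter. Without 1 culture they ran from 15 to 21 and the falls from 9 to 14. The cause of these changes was not tested. On the TPM scale the median of all genes lay lower with 5-ASA than in the edgeR fit, by 0.09 (log2) at most.

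Same-numbered cultures were not treated as paired, since neither the labels nor the methods say whether they share animals or a day. The correlation of their deviations from the group means ran from -0.07 to 0.04, which shows no shared effect but cannot tell their origin. A fit with the replicate block called 6 genes higher and 2 lower in Ad-OSCAR and 1 higher and 6 lower with 5-ASA, the numbers reported, and moved no pathway count by over 1.5 times.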
